A study of Mus musculus with 4 samples.

Results

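The mitochondrial respiratory chain was followed through its nuclear-encoded subunit genes by RNA-seq in the mouse macrophage line RAW264.7. The genes were taken by symbol, as every Nduf gene of the A, B, C, S and V series, Sdha to Sdhd, and every gene whose symbol begins with Uqcr, Cox4 to Cox8 or Atp5. Of 17655 genes in the table, 81 matched, and 79 of these reached 1 FPKM in at least 1 library, as did 11183 genes in all. FPKM is the number of mapped fragments scaled to transcript length and to sequencing depth, so levels can be compared between genes of different length. Every library came from cells permeabilized with digitonin and then kept in culture 24 h. The water library got ultrapure water, and the mock library got the water of a mock extraction of free oligosaccharides. The ManGn library got 10 µM of the synthetic Manβ1-4GlcNAc disaccharide in water, the sugar whose immune activity the study set out to describe. The fOS library got 10 µM of the free oligosaccharide pool extracted from Trex1-/- mouse embryonic fibroblasts, which lack the exonuclease TREX1. Water served as control for ManGn, and mock for fOS. Each condition has 1 library, so no difference below has a replicate check, a standard error or a p-value, and fold differences describe these 4 libraries only.

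Of 9 macrophage markers in the table, 8 reached 1 FPKM, and markers of the fibroblasts that gave the sugar pool were near 0. Cd68, a lysosomal glycoprotein of macrophages, lay between 1039 and 1324 FPKM, and Lyz2, the macrophage lysozyme, between 6202 and 7250 FPKM. Of 8 fibroblast markers, 4 were listed at 0 in all libraries, among them Dcn and Pdgfra, and the 8 summed to between 0.04 and 0.29 FPKM. The 9 macrophage markers summed to between 8351 and 9270 FPKM, most of it Lyz2. Mertk, a receptor for dying cells, stayed under 1 FPKM at 0.83 in water, 0 in mock, 0.36 in ManGn and 0.08 in fOS. Itgam, the integrin CD11b, stood at 103 FPKM in water, 136 in mock, 49.8 in ManGn and 44.4 in fOS, lower in both ligand libraries than in both controls. The controls also differed, and 4 of the 8 were at least 2-fold higher with mock than with water, beside 9.24% of the 11183 genes. They were Csf1r (256 FPKM in water, 526 in mock), Spi1 (96.7 and 207), Fcgr1 (6.74 and 14.0) and Cd14 (64.9 and 254). Emr1 stood at 58.9 FPKM in water, 39.6 in mock, 30.1 in ManGn and 43.9 in fOS. Any part of these differences in the results below was not tested. The depth, read off the steps that single reads leave in low FPKM, was about 9850000 reads for water, 9877000 for mock, 9994000 for ManGn and 10501000 for fOS.

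The respiratory chain sits in the inner mitochondrial membrane. Complex I takes electrons from NADH and complex II from succinate, both pass them through ubiquinone to complex III, and cytochrome c carries them on to complex IV, which reduces oxygen to water. Complexes I, III and IV pump protons as they do so, and complex V, the ATP synthase, lets the protons flow back and makes ATP. Macrophages are known to shift between this route and glycolysis when they are activated, and some subunits exist as tissue-specific forms encoded by separate genes. Of the 79 genes, 35 encode subunits of complex I, 4 of complex II, 8 of complex III, 15 of complex IV and 15 of complex V. Ndufa4 was placed with complex IV, where current structures find its product. The remaining 2, Atp5s and Atp5sl, match by symbol but encode no structural subunit of the ATP synthase. Subunits encoded by the mitochondrial genome were not analysed here, nor were Cox7b2, Cox8b and Cox8c.

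The genes were abundant in every library. Together the 79 took 2.16% of all FPKM in water, 1.99% in mock, 2.10% in ManGn and 2.11% in fOS. The median gene of the chain stood at 104 FPKM in water, 94.2 in mock, 99.1 in ManGn and 98.5 in fOS. The medians of the 11183 genes lay between 11.5 and 12.5 FPKM. Complex IV had the highest median level with water (212 FPKM) and complex I the lowest (79.4 FPKM). The summed FPKM of complex V was 3319 in water, 2991 in mock, 3128 in ManGn and 3331 in fOS. Complex IV gave sums of 2939, 2468, 2490 and 2317 FPKM in the same order. The fOS library thus held the lowest sum of complex IV, while its sum of complex V was nearly that of water. Most genes lay far above the minimum of 1 FPKM. Cox4i2 entered with 1.96 FPKM at its highest, while Ndufa4l2 with 0.31 FPKM and Cox6b2, listed at 0 in every library, fell outside.

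**Figure D1:**
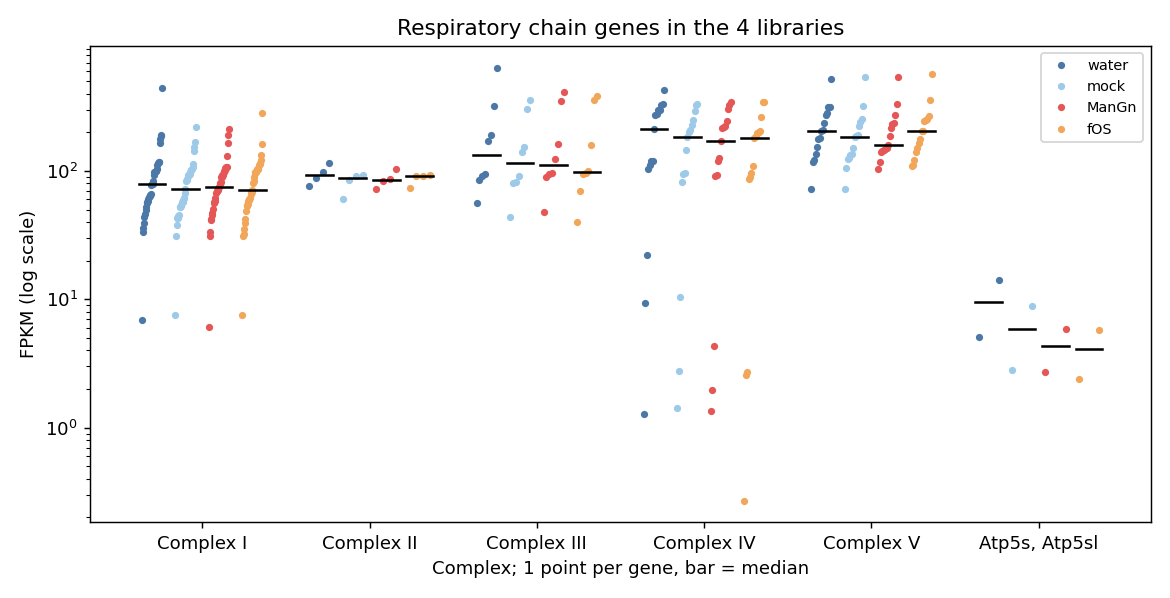
FPKM (log axis) of each of the 79 genes in the 4 libraries, grouped by complex, with a bar at the median. The medians of a complex lie close together across libraries, and the low points of complex IV are the tissue-specific forms Cox4i2, Cox6a2 and Cox7a1.

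Few genes of the chain differed 2-fold with either ligand, and those that did were lower. Differences are given as the log2 ratio of FPKM plus 0.1, and a gene was counted at 2-fold or more with FPKM of at least 1 in either library compared. With ManGn over water, 0 of the 79 were higher and 5 were lower, which is 6.33% against 7.37% of all genes tested lower and 9.44% higher. The 5 were Cox6a2, Cox7a1 and Cox7a2l of complex IV, Ndufv3 of complex I and the non-subunit Atp5sl. With fOS over mock, 0 were higher and 2 were lower, Cox6a2 and Cox4i2. This is 2.53% against 6.41% of all genes tested lower and 2.67% higher. Between the controls, 0 were higher and 3 lower with mock than with water, namely Cox6a2, Cox7a1 and Ndufv3. This is 3.80% against 6.69% of all genes tested lower and 9.24% higher. The share lower with ManGn is thus near that of all genes, and the absence of any gene at 2-fold higher held in all 3 comparisons. Set against the other control, ManGn had 0 genes higher and 1 lower, Cox6a2, beside 3.51% and 3.47% of all genes tested. fOS against water had 0 higher and 7 lower, beside 14.1% and 14.3%. At 1.5-fold, 3 genes were higher and 11 lower with ManGn over water, beside 20.8% and 17.6%. With fOS over mock, 3 were higher and 6 lower at 1.5-fold, beside 9.43% and 14.7%, and for mock over water 0 were higher and 8 lower, beside 21% and 14.9%. These are bulk libraries, in which fewer cells of a type and less RNA per cell cannot be told apart.

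The median log2 ratio of the 79 genes was -0.13 with ManGn over water, beside 0.05 over all genes tested. With fOS over mock it was 0.061, beside -0.024. Among genes with a mean of at least 30 FPKM the order was the reverse, 0.074 for the chain beside 0.11. With mock over water it was -0.18, beside 0.074. The summed FPKM of all genes was lower with ManGn than with water by 0.15 on the log2 scale, and with mock by 0.12. With FPKM scaled to the same sum the median of the chain came to 0.011 with ManGn over water and to -0.064 between the controls. The genes of the chain spread less than genes at large. With ManGn over water 82.3% of the 79 lay within 1.5-fold, against 60.9% of all genes tested, and with fOS over mock 88.6% did, against 74.2%. Since most genes of the chain are well expressed, the same was read among genes with a mean of at least 30 FPKM, a limit chosen after the values were seen. There 87.7% of 73 chain genes were within 1.5-fold with ManGn, against 64.3% of 2698 genes, and 91.8% with fOS, against 79.7%. At 2-fold, 2 of the 73 were lower with ManGn, beside 4.11% of those genes, 0 with fOS, beside 3.37%, and 1 for mock over water, beside 2.15%. In the same order 0 of the 73 were higher, beside 9.08%, 1.63% and 6.82%, so with fOS few genes of that level were higher at all. The water library was the highest of the 4 for 40 of the 79 genes, or 50.6%, against 32.7% of all genes tested. The mock library was the highest for 5, or 6.33%, against 18.7%. The ratios of ManGn over water and of mock over water share the water library, so a high value there lowers both.

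**Figure D2:**
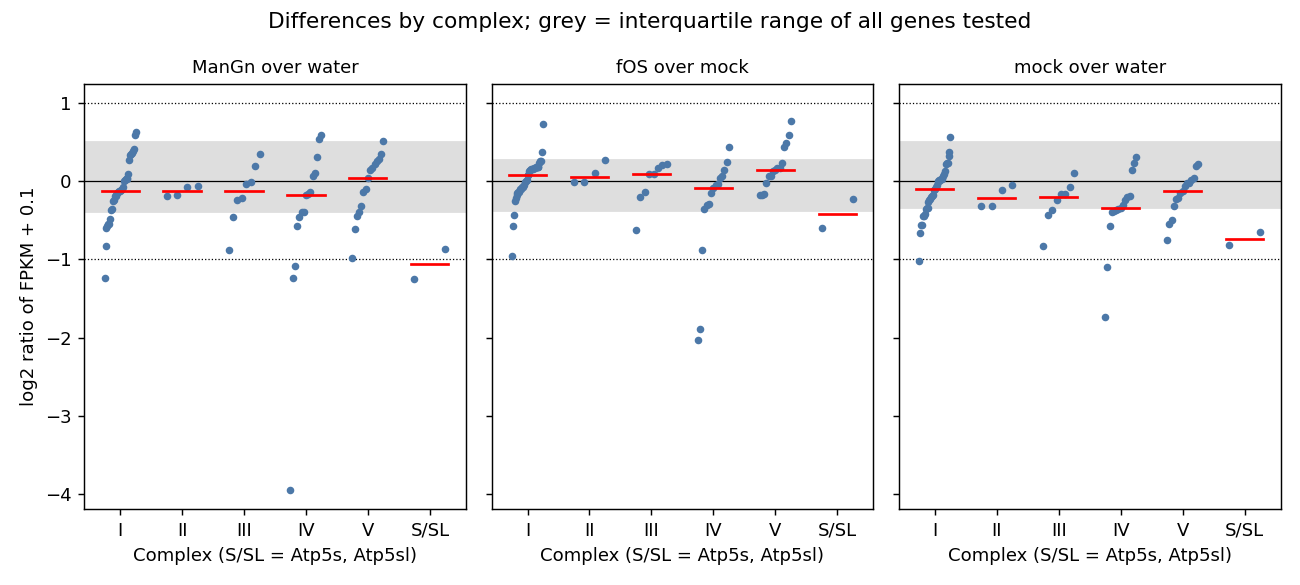
Log2 ratio of FPKM plus 0.1 for each gene by complex in the 3 comparisons, with a red bar at the median, dotted lines at 2-fold and a grey band for the interquartile range of all 11183 genes tested. No gene reaches the upper dotted line, and the points below the lower one are mostly of complex IV.

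Complex I, the largest complex of the chain, had medians near its control levels with both ligands. Its only gene at 2-fold or more was that of the accessory subunit Ndufv3, and several others passed 1.5-fold. The median log2 ratio of its 35 genes was -0.12 with ManGn, 0.074 with fOS and -0.094 between the controls. Against the other control the ligand medians were 0.0095 and -0.0044. With ManGn 14 genes were above and 21 below water, and 30 of the 35 lay within 1.5-fold of it. With fOS 33 of the 35 lay within 1.5-fold of mock.
Ndufv3 (Entrez Gene 78330), which encodes an accessory subunit of the NADH-oxidizing module, stood at 446 FPKM in water, 219 in mock, 190 in ManGn and 113 in fOS. It was the highest gene of complex I with water and mock, and the other 3 libraries all lay far below the water level. Its log2 ratio was -1.23 with ManGn over water, -0.95 with fOS over mock and -1.03 between the controls. Over mock the ManGn value came to -0.21. The table lists 2 transcripts for Ndufv3 and for Cox7a2l, and whether their mix moved these FPKM was not tested.
Ndufa12 (66414), a small subunit of the matrix arm, stood at 166 FPKM in water, 170 in mock, 211 in ManGn and 281 in fOS. The controls lay close together and both ligand libraries above them. Its log2 ratio with fOS, 0.73, was the highest in complex I, and that with ManGn was 0.34. Ndufa5 (68202), a matrix-arm subunit, had the highest log2 ratio with ManGn (0.63), but between the controls it also stood at 0.56, and over mock ManGn came to 0.07. Ndufb6, a subunit of the membrane arm, had log2 ratios of 0.59 (ManGn) and 0.18 (fOS).
On the lower side, Ndufa6 (67130), which docks the mitochondrial acyl carrier protein, was at 179 FPKM in water, 114 in mock, 100.5 in ManGn and 103 in fOS. The water library alone stood apart. Ndufa1 (54405), a membrane subunit needed for assembly, was at 62.6 FPKM in water, 52.9 in mock, 41.5 in ManGn and 35.6 in fOS. Here both ligand libraries lay below both controls, with log2 ratios of -0.59 and -0.57. Ndufb11 behaved likewise, at -0.48 with ManGn and -0.43 with fOS. The lowest gene of complex I was Ndufa11, at 6.85 FPKM in water, 7.51 in mock, 6.14 in ManGn and 7.51 in fOS. From rounded estimated reads, its ratio with ManGn over water was 0.879, for which the exact 95% limits were 0.533 and 1.44, so a difference was not detectable at this depth.

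Complex II, which is also the succinate dehydrogenase of the citric acid cycle, differed least. Its 4 genes all lay within 1.5-fold in every comparison. Their median was -0.12 with ManGn and 0.051 with fOS, and against the other control 0.066 and -0.086. Sdha (66945), the flavoprotein that oxidizes succinate, stood at 87.5 FPKM in water, 84.5 in mock, 83.5 in ManGn and 91.2 in fOS. Sdhb, the iron-sulphur subunit, had log2 ratios of -0.19 (ManGn) and -0.014 (fOS). The membrane anchors were likewise near their controls. Sdhc had log2 ratios of -0.17 and -0.0073, and Sdhd, the lowest gene of the complex on average, of -0.064 and 0.27.

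Complex III genes were also close to their controls, and the larger differences belonged to its small subunits. The median log2 ratio of the 8 genes was -0.12 with ManGn, 0.096 with fOS and -0.20 between the controls. Against the other control both ligand medians changed sign, to 0.13 with ManGn and -0.35 with fOS. Uqcrh (66576), the hinge protein that helps cytochrome c to dock, stood at 640 FPKM in water, 361 in mock, 349 in ManGn and 386 in fOS. Only the water library was high, and Uqcrh was the most abundant gene of the chain there. Its log2 ratio was -0.88 with ManGn over water and -0.83 between the controls, while ManGn over mock came to -0.05. Uqcrq (22272), a small subunit of complex III, stood at 172 FPKM in water, 154 in mock, 125 in ManGn and 99.5 in fOS. Both ligand libraries were below both controls, and its log2 ratio with fOS, -0.63, was the lowest of the complex. Uqcrb (67530), a subunit at the ubiquinone site, went the other way, with 322, 306, 410 and 357 FPKM in the same order and log2 ratios of 0.35 and 0.22. For the core protein gene Uqcrc1 the log2 ratios were 0.19 (ManGn) and 0.097 (fOS), and for Uqcrc2 they were -0.032 and 0.21. Uqcrfs1, the Rieske iron-sulphur protein and the lowest gene of the complex, had log2 ratios of -0.24 and -0.13.

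Complex IV, cytochrome c oxidase, held the largest difference with each ligand over its own control, that of Cox6a2 with ManGn and that of Cox4i2, on few reads, with fOS. Cox7a2l, which is outside the tissue-specific forms, also passed 2-fold with ManGn over water. The 15 genes of complex IV had a median log2 ratio of -0.17 with ManGn, -0.089 with fOS and -0.35 between the controls. Over mock the ManGn median turned to 0.074, and over water the fOS median was -0.45. At the same sum the ManGn median was -0.026, and without genes under 5 FPKM in every library -0.28. The fOS library was the lowest of the 4 for 9 of the 15, or 60%, against 30.4% of all genes tested.
Cox6a2 (12862), the heart and skeletal muscle form of subunit VIa, stood at 22.25 FPKM in water, 10.3 in mock, 1.35 in ManGn and 2.72 in fOS. Both ligand libraries lay far below both controls, and the controls differed from each other. These levels stand for 149, 69.4, 9.17 and 19.4 estimated reads. From reads rounded to whole numbers, the ratio was 0.0595 with ManGn over water, and the exact 95% limits were 0.0267 and 0.116. With fOS over mock it was 0.259 (0.147 to 0.435), between the controls 0.462 (0.342 to 0.618), and with ManGn over mock 0.129 (0.0566 to 0.259). These intervals cover counting error only. Cox6a2 was the 1 gene of the 79 at least 2-fold below its own control with each ligand, where 2.24% of all genes tested were, and also below both controls with ManGn, where 1.23% were. With fOS, it and Cox4i2 were below both controls, where 4.37% of all genes tested were. For Cox4i2 the ratio of rounded reads with fOS over water was 0.208, and its limits of 0.0219 and 1.01 include 1.
The common form Cox6a1 (12861) stood at 329 FPKM in water, 251 in mock, 222 in ManGn and 205 in fOS. Cox6a2 made up 6.33% of the FPKM of the pair in water, 3.96% in mock, 0.605% in ManGn and 1.31% in fOS. The muscle form was thus the minor form in all libraries, and its share was lowest with the ligands. Markers of muscle were low. Of 10 muscle markers in the table, 5 were listed at 0 in all libraries, among them Mb, Myh6 and Myh7. Ryr1 was the highest, at 0.87 FPKM in water, 0.95 in mock, 0.92 in ManGn and 0.42 in fOS. Tnnt3 stood at 0.67 FPKM in water and 0.3 in mock, and was listed at 0 with both ligands. The 10 summed to 2.08 FPKM in water, 1.54 in mock, 1.38 in ManGn and 0.88 in fOS, an order in which water is highest and fOS lowest, and none reached 1 FPKM.
Cox7a1 (12865), the heart and skeletal muscle form of subunit VIIa, stood at 9.32 FPKM in water, 2.74 in mock, 4.33 in ManGn and 2.57 in fOS. The water library alone was high. Its log2 ratio was -1.09 with ManGn over water and -0.089 with fOS over mock, and over mock ManGn turned to 0.64. Its 36 rounded reads with water against 11 with mock gave a ratio of 0.305 (0.14 to 0.612). The common form Cox7a2 (12866) ran between 81.9 and 104 FPKM, and Cox7a1 held 8.21% of the pair with water and between 2.76% and 4.44% elsewhere.
Cox4i2 (84682), the lung and hypoxia form of subunit IV, stood at 1.27 FPKM in water, 1.41 in mock, 1.96 in ManGn and 0.27 in fOS. Its log2 ratio was -2.03 with fOS over mock and 0.59 with ManGn. The fOS value rests on 2 rounded reads against 10, a ratio of 0.188, for which the exact 95% limits were 0.02 and 0.883. The ManGn ratio of 1.53 had an interval of 0.618 to 4.02 and so was not detectable as a difference at this depth. Cox4i1 (12857), the common form and the most abundant gene of the complex on average, stood at 429, 335, 328 and 262 FPKM with water, mock, ManGn and fOS. Ndufa4l2, the hypoxia-induced relative of Ndufa4, was at 0.31 FPKM with water and 0.21 with mock, and listed at 0 with both ligands. The 2.85 and 1.94 estimated reads behind these values allow no comparison. Ndufa4 (17992) itself stood at 119 FPKM in water, 147 in mock, 172 in ManGn and 199.5 in fOS, with log2 ratios of 0.53 and 0.44.
Cox7a2l (20463) encodes a protein described as joining complexes III and IV into supercomplexes, a role not tested in this line. It stood at 300.2 FPKM in water, 202 in mock, 127 in ManGn and 110 in fOS. Both ligand libraries lay below both controls. Its log2 ratio was -1.24 with ManGn over water and -0.88 with fOS over mock, and over mock ManGn came to -0.67.
The other common subunits of complex IV lay within 1.5-fold of their own controls. Cox8a, a small membrane subunit, had log2 ratios of -0.46 and -0.30, Cox6c of -0.40 and -0.15, and Cox5b, which binds zinc, of 0.31 and 0.066. Cox5a, the partner of Cox5b on the matrix side, had log2 ratios of 0.072 and -0.038.

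The sequences before the starts of Cox7a1, Ndufv3 and Cox7a2l are shown because these genes carry differences described above, that of Cox7a2 because it is the common partner of Cox7a1, and that of Cox6a1 because it holds matches of the NRF1 and GABP letters, factors known to act on many genes of the chain. Each is the 250 bases before the start, from RefSeq on GRCm38.p6. Capitals mark matches on either strand. The letters searched were GCATGCG, the core of the motif of NRF1. They were also CCGGAAG, the ETS-type motif that GABP binds. A further pair were the E-box, CACGTG, and the box named for its letters, CCAAT. The last were AAGATGG for the factor YY1 and, for the estrogen-related receptors, AAGGTCA.
Cox6a1, chr5:115348959-115349208, minus strand: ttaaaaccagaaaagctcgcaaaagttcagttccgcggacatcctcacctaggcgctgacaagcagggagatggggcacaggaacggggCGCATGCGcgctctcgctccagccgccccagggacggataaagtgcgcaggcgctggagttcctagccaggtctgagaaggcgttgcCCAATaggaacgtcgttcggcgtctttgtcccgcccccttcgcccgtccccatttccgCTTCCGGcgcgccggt
Cox7a1, chr7:30183921-30184170, plus strand: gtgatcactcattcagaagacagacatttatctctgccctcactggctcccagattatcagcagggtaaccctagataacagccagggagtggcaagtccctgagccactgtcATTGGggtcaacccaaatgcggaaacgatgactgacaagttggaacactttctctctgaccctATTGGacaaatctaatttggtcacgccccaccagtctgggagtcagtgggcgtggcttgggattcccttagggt
Cox7a2, chr9:79759854-79760103, minus strand: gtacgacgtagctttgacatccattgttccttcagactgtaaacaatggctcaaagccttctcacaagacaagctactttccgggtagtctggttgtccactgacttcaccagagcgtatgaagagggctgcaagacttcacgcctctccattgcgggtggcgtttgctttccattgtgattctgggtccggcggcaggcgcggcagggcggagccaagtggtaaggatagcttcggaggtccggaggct
Ndufv3, chr17:31519865-31520114, plus strand: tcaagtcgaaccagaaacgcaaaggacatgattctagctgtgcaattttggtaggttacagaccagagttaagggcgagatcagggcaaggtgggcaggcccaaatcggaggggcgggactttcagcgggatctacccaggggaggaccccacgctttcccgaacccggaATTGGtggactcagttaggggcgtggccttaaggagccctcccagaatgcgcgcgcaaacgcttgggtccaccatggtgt
Cox7a2l, chr17:83514334-83514583, minus strand: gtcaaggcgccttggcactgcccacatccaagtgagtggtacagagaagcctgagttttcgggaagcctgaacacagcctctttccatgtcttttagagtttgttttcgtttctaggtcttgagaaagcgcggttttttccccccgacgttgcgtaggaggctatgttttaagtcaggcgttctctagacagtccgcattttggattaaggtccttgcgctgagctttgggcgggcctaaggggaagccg
The window of Cox6a1 holds overlapping matches of GCATGCG and its reverse complement, which together read CGCATGCG, 1 match each of the GABP and CCAAT letters and none of the other motifs. The windows of Cox7a1 and Ndufv3 hold matches of the CCAAT letters only, and those of Cox7a2 and Cox7a2l hold none. Of the 79 genes, 66 had a window in the RefSeq table, with 72 windows among them. Cox6a2 and Cox4i2, which carry the largest differences, had none and so are not among those shown. GCATGCG or its reverse complement was in 12.5% of these windows, against 5.50% of the windows of genes tested and 3.02% of all 32851 windows of this length. CCGGAAG was in 16.7%, against 14.7% and 6.91%, and AAGGTCA in 6.94%, against 2.99% and 4.08%. CACGTG was in 12.5%, against 8.53% and 6.02%, CCAAT in 41.7%, against 36.0% and 33.8%, and AAGATGG in 2.78%, against 4.4% and 4.49%. ACGTG, the core of the hypoxia response element, was searched but not capitalized, since every E-box holds it, and was in 23.6%, against 22.3% and 16.6%. A match is a description of the letters and not a bound site.

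**Figure D3:**
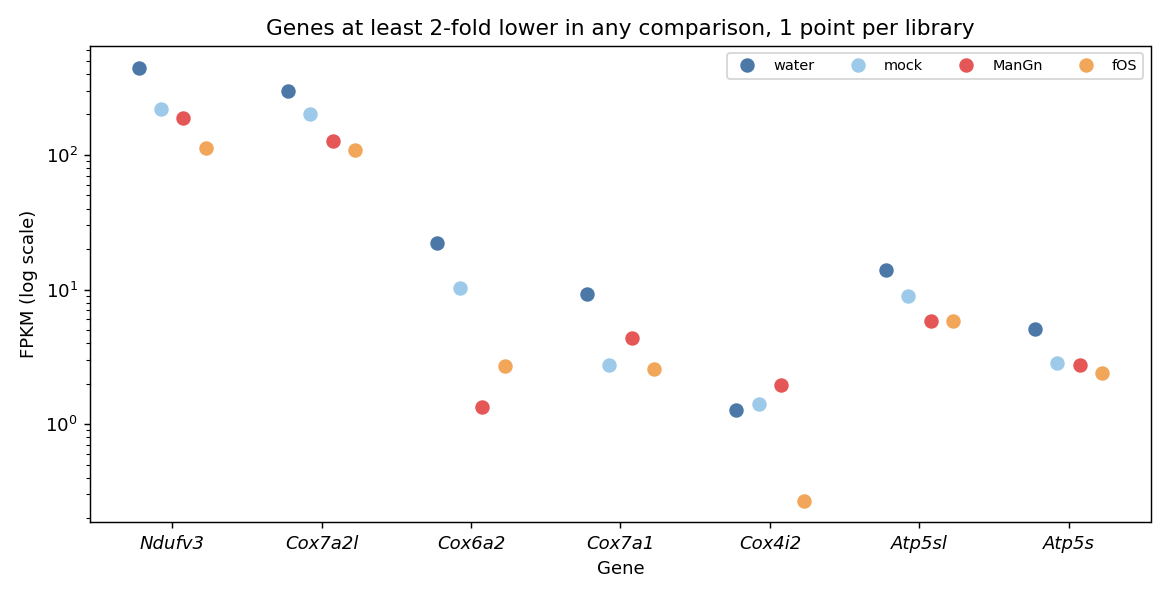
FPKM (log axis) in each of the 4 libraries for the 7 genes at least 2-fold lower in any comparison of a ligand with either control or between the controls. For Cox6a2, Cox7a2l, Ndufv3, Atp5sl and Atp5s both ligand points lie under both control points, while Cox7a1 is high with water alone.

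Complex V, the ATP synthase, was close to its controls. The median log2 ratio of its 15 genes was 0.04 with ManGn, 0.14 with fOS and -0.13 between the controls, and 11 of the 15, or 73.3%, were above mock with fOS. Of all genes tested 47.7% were, and of those with a mean of at least 30 FPKM 59.6%, with a median of 0.11. With each ligand 13 of the 15 lay within 1.5-fold of the control. The 5 genes of the F1 part, which takes in the catalytic head and the central stalk, had medians of -0.32 with ManGn and 0.061 with fOS. The other 10, of the membrane part and the outer stalk, had medians of 0.15 and 0.20. Between the controls the F1 median was -0.23 and that of the other 10 was -0.096. Over mock the ManGn medians came to -0.006 for F1 and 0.14 for the other 10. Atp5b (11947), the catalytic beta subunit and the most abundant gene of the complex, stood at 525 FPKM in water, 542 in mock, 540 in ManGn and 566 in fOS. Its 4 values lay within 1.08-fold. Atp5a1, the alpha subunit, had log2 ratios of 0.28 and 0.17. Atp5d, the delta subunit of the central stalk, was at -0.61 with ManGn, but between the controls it was at -0.54 as well. Atp5f1 (11950), the b subunit of the outer stalk, stood at 211 FPKM in water, 193 in mock, 236 in ManGn and 269 in fOS, with both ligand libraries above both controls.

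The c subunit, which forms the rotating ring of the ATP synthase, is made from 3 genes that encode the same mature protein behind different import signals, and these genes differed from each other. Atp5g1 (11951) stood at 72.9 FPKM in water, 71.8 in mock, 104 in ManGn and 123 in fOS. Both ligand libraries lay above both controls, with log2 ratios of 0.51 and 0.77, the highest of the complex with each ligand and with fOS the highest of all 79 genes. Atp5g3 (228033) stood at 135 FPKM in water, 137 in mock, 150 in ManGn and 207 in fOS, with log2 ratios of 0.15 and 0.59. Atp5g2 (67942) stood at 313 FPKM in water, 187 in mock, 159 in ManGn and 165 in fOS, with log2 ratios of -0.98 and -0.18. Over mock the ManGn value of Atp5g2 came to -0.23, and the water library alone was high. Of the summed FPKM of the 3 genes, Atp5g2 held 60.0% in water, 47.2% in mock, 38.5% in ManGn and 33.3% in fOS. Atp5g1 held 14.0%, 18.2%, 25.2% and 24.8% in the same order. The sum of the 3 was 521, 395, 413 and 494 FPKM, so that the makeup of the c subunit RNA differed more between libraries than its amount. Reads of genes with near-identical coding sequences or processed pseudogenes can be split between copies, which makes these levels uncertain.

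**Figure D4:**
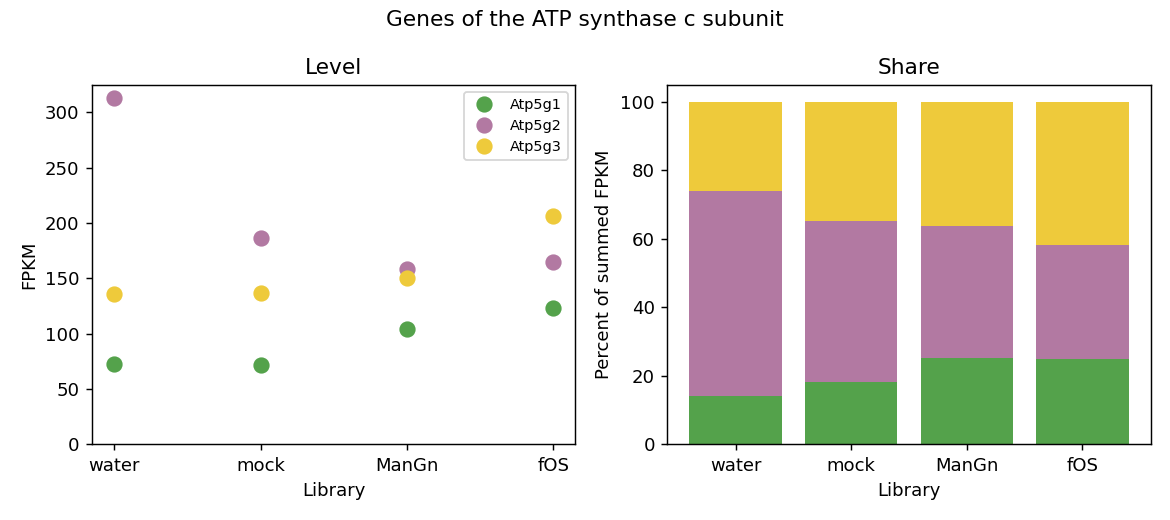
FPKM (left) and percent of the summed FPKM (right) of Atp5g1, Atp5g2 and Atp5g3 in the 4 libraries. The share of Atp5g2 goes from 60.0% with water to 33.3% with fOS.

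The symbol matches Atp5s and Atp5sl, which belong to no complex, were lower than water in the other libraries. Atp5sl (66349), known as an assembly factor of complex I, stood at 14.0 FPKM in water, 8.88 in mock, 5.87 in ManGn and 5.81 in fOS. From rounded estimated reads its ratio was 0.418 with ManGn over water (0.341 to 0.511) and 0.657 with fOS over mock (0.528 to 0.816). Atp5s (68055) had 5.06, 2.83, 2.73 and 2.41 FPKM in the same order.

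No library is used in both ligand comparisons, so the log2 ratios of ManGn over water and of fOS over mock can be set side by side for each gene. Over the 79 genes, Pearson's r was 0.61 and Spearman's rho 0.63, a description only, since genes are no independent replicates and all of them share the same 4 libraries and their depths. Across all genes tested these were 0.31 and 0.48. Without the 6 genes under a mean of 30 FPKM, the values for the chain were 0.70 and 0.65. Those of all genes at that level were not computed, so the chain and all genes are not matched in level here. Both ligand libraries were above both controls for 20 of the 79 genes, or 25.3%, against 21.3% of all genes tested. Both were below for 22, or 27.8%, against 21.7%. Above were Atp5g1, Atp5g3, Atp5f1, Ndufa4, Ndufa12 and Uqcrb, among others, and below were Cox6a2, Cox7a2l, Ndufv3, Cox4i1, Cox6a1, Cox8a and Uqcrq. The common forms Cox4i1, Cox6a1 and Cox8a thus lay on the same side as the muscle form Cox6a2, with smaller differences. Over mock their ManGn log2 ratios were only -0.031, -0.18 and -0.097. Between the controls they were -0.36, -0.39 and -0.37. The other common subunits of complex IV did not all follow. Cox6c was below both controls with both ligands, Cox5b and Ndufa4 were above, and Cox5a, Cox6b1, Cox7a2, Cox7b and Cox7c were on neither side. Transcript length and the log2 ratio were little related, with a Spearman correlation of 0.032 with ManGn and 0.091 with fOS over the 72 genes with 1 known length.

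**Figure D5:**
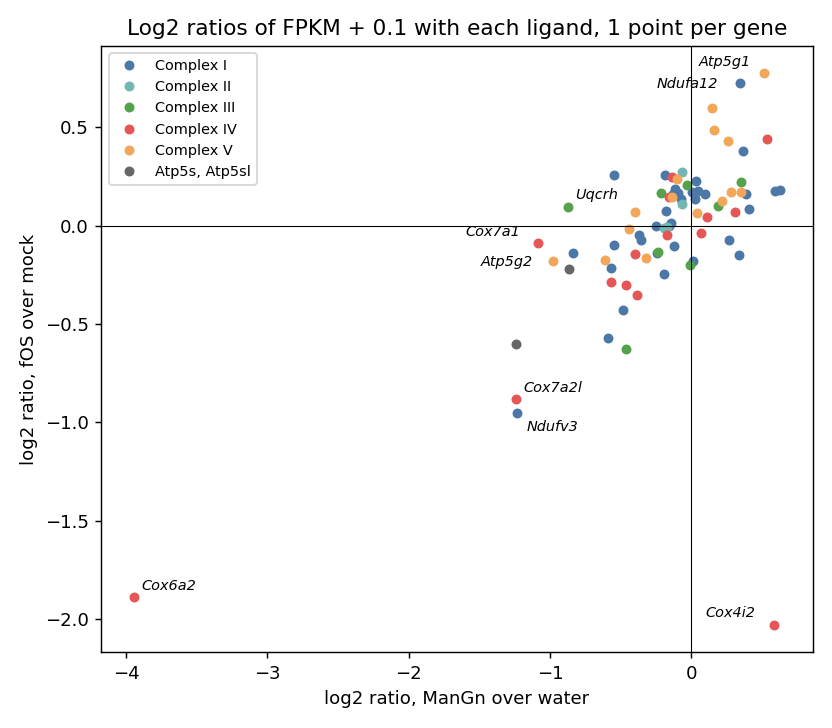
Log2 ratio with ManGn over water (x axis) against that with fOS over mock (y axis), 1 point per gene, coloured by complex. Most points lie near the origin, Cox6a2 stands at -3.95 and -1.89, and Cox4i2 at 0.59 and -2.03.

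Other genes of the same organelle give the setting of these values. The counts at 2-fold below are to be read beside 9.44% of all genes tested higher and 7.37% lower with ManGn over water, 2.67% and 6.41% with fOS over mock, and 9.24% and 6.69% with mock over water. Cycs, the somatic cytochrome c that links complexes III and IV, was higher with both ligands, at 50.05 FPKM in water, 66.3 in mock, 103 in ManGn and 136 in fOS. Its log2 ratio was 1.04 with each ligand over its own control, 0.41 between the controls and 0.63 with ManGn over mock. Cyc1, the cytochrome of complex III that the symbol rule leaves out, stood at 52.6, 52.6, 64.9 and 63.9 FPKM. Ndufab1, the acyl carrier protein of complex I, had log2 ratios of 0.41 and 0.25. These belong to a list of 7 measured genes, which also holds Atp5s. Of the 7, 1 was 2-fold higher and 0 lower with each ligand, with medians of 0.30 and 0.23. The others had log2 ratios of 0.57 and 0.23 (Usmg5), -0.0081 and 0.0019 (Atpif1), 0.058 and -0.12 (2010107E04Rik), and -0.87 and -0.22 (Atp5s).
Of 17 measured assembly factors of complex I, 0 were 2-fold higher and 1 was lower with ManGn, which was Atp5sl, and with fOS 1 was higher, Ndufaf4, at 1.01. Their medians were 0.07 and 0.32. Of 25 assembly factors of complex IV, 3 were higher (Cox17, Coa3 and Selrc1, also called Coa7) and 1 lower (Pet117) with ManGn, and 0 passed in either direction with fOS. Cox17, the copper chaperone of complex IV, stood at 76.6 FPKM in water, 66.9 in mock, 166 in ManGn and 109 in fOS. Coa3, also needed to build complex IV, had a log2 ratio of 1.02 with ManGn over water and 0.81 between the controls. Selrc1 had 1.84 with ManGn over water and 2.17 between the controls, and over mock ManGn turned to -0.32. Pet117 was at 5.78 FPKM with water, 3.78 with mock and 2.76 with fOS, and listed at 0 with ManGn. Higd2a, which like Cox7a2l has been described as taking part in building supercomplexes, had log2 ratios of -0.84 and -0.65. For the 4, 6 and 4 assembly factors of complexes II, III and V, 0 passed 2-fold with either ligand.
Of 76 genes of the mitochondrial ribosome, 4 were higher and 0 lower with ManGn and 3 higher and 0 lower with fOS, with medians of 0.19 and 0.34. The chain had medians of -0.13 and 0.061 in the same libraries. Of 17 genes of the citric acid cycle and pyruvate dehydrogenase, 1 was higher with ManGn, Idh3a at 1.16, and 0 passed with fOS. Between the controls Idh3a also stood at 0.63, and over mock ManGn came to 0.53. Of 17 carrier, import and chaperone genes 0 passed with either ligand, with medians of 0.23 and 0.35.
Among 16 measured regulators of mitochondrial biogenesis, Myc alone passed 2-fold with each ligand, at 2.43 and 2.86. Nrf1, which binds the GCATGCG letters, had log2 ratios of -0.22 and -0.23, and Gabpa of 0.21 and -0.051. Ppargc1a, the coactivator that drives biogenesis in muscle, was under 0.05 FPKM in every library. Tfam, which packages mitochondrial DNA, had log2 ratios of 0.81 and -0.22, but between the controls it stood at 1.01 and over mock ManGn turned to -0.20.
Of 8 measured hypoxia-linked genes, which include Cox4i2, 5 were lower and 0 higher with fOS (median -1.70). With ManGn 1 was higher, Hilpda at 1.85, and 0 lower (median -0.42), and for mock over water 0 were higher and 5 lower (median -1.16). Bnip3, which acts in removal of mitochondria, stood at 389 FPKM in water, 163 in mock, 293 in ManGn and 20.4 in fOS. Cox4i2 was thus lowest, on 2 rounded reads, in the library where Bnip3 was lowest. The other libraries did not share an order, since Bnip3 was lower with mock than with water and Cox4i2 was not, at 1.41 and 1.27 FPKM. Whether the 2 are linked was not tested.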

How the data were processed

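The deposited values are FPKM per gene, 1 column per library, which the authors computed with RSEM according to the submitters' processing notes. The sources used here do not give its version, the aligner, the annotation or the build. Deposited sheets of the authors' own ratios hold fold values of each ligand over its control and were not used. Log2 ratios were computed from the deposited FPKM plus 0.1, and genes with FPKM of at least 1 in 1 library were kept and are called tested, with Python 3.11.15, pandas 2.3.3, numpy 2.4.6 and scipy 1.17.1. The members and lists were chosen with earlier results of these data known. Any member could be named, and of each other list up to 4 genes with the largest log2 ratio for either ligand. Members in full were those at 2-fold, the tissue-specific forms with their partners, and for each complex the extremes of level and of log2 ratio. Cyc1, Atpif1, 2010107E04Rik, Nrf1, Gabpa, Ppargc1a, Higd2a, Hilpda and the marker genes were named after their values were seen. The split of complex V into parts, the list of mitochondrial ribosome genes, the motifs and the promoters shown were also chosen after seeing the data. Depth was estimated as the number of reads at which FPKM times transcript length (GENCODE M21, used for lengths only) came closest to whole numbers. At that depth 62.3% to 67.1% of 393 to 432 values per library lay within 0.1 of a whole read, and 22.8% to 26.1% with lengths shuffled among genes. For transcripts shorter than 600 nucleotides the share was 43.9% to 50%, so estimated reads of short genes are less certain. Intervals are exact (Clopper-Pearson, 95%) on rounded reads. Ratios and depth were tested on simulated data. For depth the simulation used the same transcript lengths as the estimate, on transcripts of 600 to 1500 nucleotides. It therefore does not check those lengths or the estimated reads of shorter genes. Promoter windows were matched by Entrez Gene ID. The alternatives tried are given in the closing section. The split of complex I into core and accessory genes is not reported here.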

Additional observations from a re-analysis of the deposited data

How the results depend on the processing

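No paired analysis was possible because each condition has 1 library, and no library could be left out for the same reason. A log2 value was taken as moved past 0.1. The control decided most: set against mock, ManGn gave a median of 0.045 and 1 gene lower, and set against water, fOS gave -0.16 and 7 genes lower. Cox7a1 with ManGn then turned to 0.64, and the medians of complexes I to IV changed sign with ManGn, as did those of I, II and III with fOS. With FPKM scaled to the same sum, the median was 0.011 with ManGn over water and -0.064 between the controls, where 1 gene was then lower. The ManGn medians of complexes I, II and III then came to 0.024, 0.027 and 0.024. Without the tissue-specific forms 3 genes were lower with ManGn, 0 with fOS and 1 between the controls, and with a mean of at least 30 FPKM, chosen after seeing the data, 2, 0 and 1. With fOS, 1 gene was lower with a pseudocount of 1 and 1 with FPKM of at least 5. At 1.5-fold, 3 genes were higher and 11 lower with ManGn, 3 and 6 with fOS, and 8 were lower between the controls. The count of 0 genes at least 2-fold higher held in all 3 comparisons under each alternative but the 1.5-fold threshold. Centring on the median of all genes or on the upper quartile, no filter, structural subunits only and a pseudocount of 0.01 left these counts within 1.5 times and the medians within 0.1. Levels under about 10 reads, as of Cox4i2 and Ndufa4l2, are limited by depth, and differences between single libraries cannot be told apart from variation between cultures.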
